A study of Mus musculus with 4 samples.

Results

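The genes described here are 35 targets or partners of the transcription factor p53, a list chosen for a study of heart cells after carboplatin, a platinum drug that crosslinks DNA. They were found in the deposited count tables by gene symbol, 34 directly and 1 (Tp53i11, listed as Trp53i11) through a synonym in RefSeq, out of 32285 genes. Hearts came from adult mice in 4 groups of 5 animals of mixed sex, and each group was pooled into 1 library. Mice were given either carboplatin (45 mg/kg into the abdomen, 2 injections per week over 2 weeks) or PBS, and then rested for 4 weeks. A pump under the skin then delivered saline, or angiotensin II at 1.5 mg/kg per day together with PE at 50 mg/kg per day (AngII/PE), and hearts were taken on day 7. Every group therefore carried a pump and a series of injections, and the cells were taken at least 4 weeks after the last dose. The labels give neither the strain nor what PE stands for. Cells were sorted as CD64+ and Ly6C low from the CD45+ CD11b+ cells without Ly6G, and endothelial-like and fibroblast-like cells that came through the sort are described beside the phagocytes.

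In undamaged cells p53 is kept low by MDM2, which tags it for destruction, and by the related protein MDM4. Damage to DNA stabilises p53, which then binds DNA and switches on genes that stop the cell cycle (Cdkn1a), start cell death (Bax, Bbc3, Pmaip1), repair DNA (Xpc, Ddb2) and, through Mdm2 and Ppm1d, shut p53 down again. The level of Trp53 RNA itself is not how p53 is mainly controlled, so its targets are commonly read in its place.

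The DNA that p53 binds is a run of 20 bases made of a pair of 10-base copies, and it is shown here for 4 members. Binding was not measured, and DNA outside the windows below was not searched. The windows from 250 bases before to 50 after each annotated start in RefSeq (build GRCm38.p6) were searched for the p53 consensus element with up to 3 mismatches, keeping the fixed C and G of each copy. The element reads the same on both strands. A window was given for 27 of the 35 members, in 35 windows, and 8 of these windows, from 7 genes, held a match, against 1.379% of all 32851 windows. With at most 1 mismatch, 22 windows in the whole genome matched (0.067%), and these included Cdkn1a, Ccng1 and Rps27l. The mismatch limit was set after the matches were seen, and the genes were listed as p53 targets to begin with, so the matches are a description only. The element is in capitals, 5′ to 3′ on the gene's strand, with 5 bases on either side:
Cdkn1a: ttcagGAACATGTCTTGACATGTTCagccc
Ccng1: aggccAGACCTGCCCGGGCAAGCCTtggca
Rps27l: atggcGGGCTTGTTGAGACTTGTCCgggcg
Aen: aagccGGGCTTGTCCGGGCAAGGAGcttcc
The Cdkn1a element lay at chr17:29090928-29090947 on the plus strand, from 51 to 32 bases before the start and outside annotated genes. That of Ccng1, on the minus strand at chr11:40755462-40755481, was 195 to 176 bases before the start and also outside annotated genes. The Rps27l element (chr9:66946296-66946315, plus strand) lay inside the annotated gene, before the start of the RefSeq transcript. The Aen element, with 3 mismatches, lay at chr7:78895937-78895956 on the plus strand in an untranslated exon of Aen, before the start of one RefSeq transcript and past the start of another. Bbc3, Sesn1 and Trp53 also held a match with 3 mismatches and are not shown.

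The 4 libraries held 5997 to 8012 barcodes and 62943457 to 95752612 UMIs (counts of RNA molecules), and 3484 to 5669 cells per library passed the filters. Any pair of libraries shared 1 to 10 cell barcodes among those kept. Cells were clustered and named from marker genes, and the names are rebuilt ones and not the authors'. In the order PBS with saline, carboplatin with saline, PBS with AngII/PE and carboplatin with AngII/PE, which is kept for every run of 4 values below, the macrophage-like class held 1949, 1017, 2127 and 3921 cells. The endothelial-like class held 598, 555, 304 and 352 cells, the fibroblast-like class 75, 70, 115 and 92, and the dendritic-like class 200, 141, 157 and 120. The 10 macrophage markers summed to 16499 to 22406 CPM in the macrophage-like class, the 8 endothelial markers to 15366 to 20657 CPM and the 8 fibroblast markers to 29217 to 42020 CPM in theirs, and none of these markers was at 0 in a library of its class. UMIs of each gene were summed over the cells of a class in a library and are given as CPM, the counts scaled to a sum of 1e6 UMIs in that class. Each group being 1 library, the differences have no replicate check and no test, and every interval given is an exact 95% interval that covers counting error only. The carboplatin library with saline lost 43.2% of its barcodes to the limit on mitochondrial counts, against 22.7% to 31.1% in the other 3.

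Before any treatment is compared, the classes differed widely in which p53 targets they held. Of the 33 members that reached 10 CPM in at least 1 class, 14 had their highest mean in endothelial-like cells (32.8% of all genes did), 8 in macrophage-like cells (16.1%), 8 in fibroblast-like cells (32.6%) and 3 in dendritic-like cells (18.4%). Pmaip1, which encodes the death protein Noxa, had a mean of 161 CPM over the 4 libraries in dendritic-like cells, 38.9 in macrophage-like cells, 3.39 in endothelial-like cells and 2.07 in fibroblast-like cells. The dendritic-like libraries (139 to 197 CPM) did not overlap those of any other class. Eda2r, a receptor of the tumour necrosis factor family, went the other way, with 25.3 CPM in endothelial-like and 14.4 in fibroblast-like cells against 0.208 in macrophage-like and 0.343 in dendritic-like cells. Thinned to 2000 UMIs each, 5.51%, 5.47%, 6.71% and 4.08% of endothelial-like cells held an Eda2r UMI. In macrophage-like cells the same share was 0.0769% or less, and the median depth there before thinning was higher (13540 to 16384 UMIs against 5869 to 10026).

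Endothelial-like cells also had the highest means of Plk2 and of the death receptors Fas and Tnfrsf10b, and Plk3, a relative of Plk2, was highest in macrophage-like cells. Plk2, a stress-induced kinase, averaged 187 CPM there and 40.5 CPM in macrophage-like cells, its next highest class. Fas, the receptor of the Fas ligand, averaged 101 CPM in endothelial-like cells and 40.5 CPM in fibroblast-like cells. Tnfrsf10b, the mouse TRAIL receptor, averaged 16.9 CPM in endothelial-like cells and 2.03 CPM or less elsewhere. Phlda3, which blocks the kinase AKT at the membrane, was highest in fibroblast-like cells at 160 CPM, against 47.2 in endothelial-like, 14.9 in macrophage-like and 6.09 in dendritic-like cells. Sesn1, a stress protein that restrains mTORC1, was highest in macrophage-like cells at 156 CPM. Trp53 itself had means from 61.0 CPM in dendritic-like to 80.5 CPM in endothelial-like cells, and the macrophage-like libraries overlapped with those of each other class. Perp and Pidd1 stayed under 10 CPM in each class and entered no comparison, whereas 18 members had enough UMIs in all 8 comparisons of carboplatin with PBS.

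**Figure D1:**
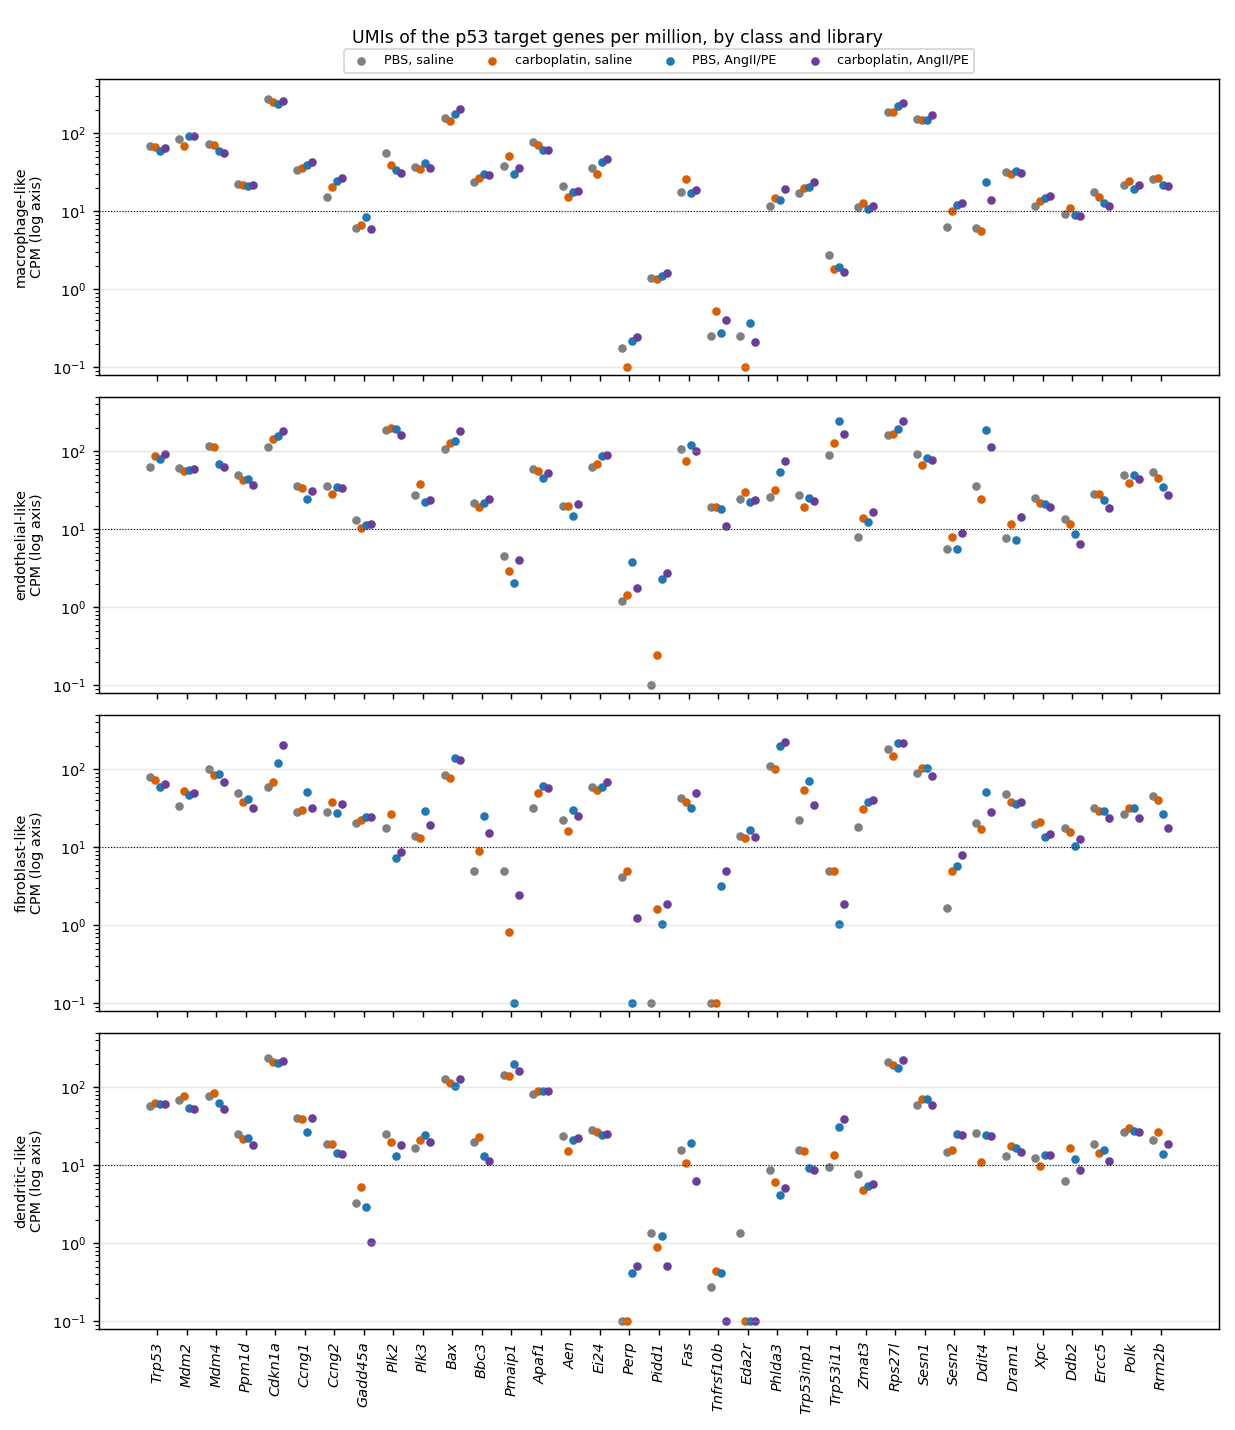
CPM (log axis) of the 35 genes in each library (colours), with 1 panel per cell class; values under 0.1 CPM, 0 included, are drawn at 0.1, and the dotted line marks 10 CPM. Pmaip1 stands at 139 to 197 CPM in the dendritic-like libraries alone, and Eda2r is near the floor in both phagocyte classes.

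In macrophage-like cells the p53 targets differed little between carboplatin and PBS. Summed over all 35 genes, their share was 1560 CPM after PBS and 1508 CPM after carboplatin with the saline pump, a ratio of 0.967 (interval 0.952 to 0.982). With AngII/PE it was 1563 and 1664 CPM, a ratio of 1.06 (1.05 to 1.08). Compared genes had a mean of 10 CPM or more across the libraries of the class and 50 or more UMIs in the pair, and counted as higher or lower from 1.5-fold. With saline, 1 of the 28 compared members was higher (Sesn2), where 1.66% of all 8492 compared genes were, and 0 were lower, where 2.11% were. With AngII/PE, 0 were higher, where 0.436% of 8491 genes were, and 1 was lower (Ddit4), where 0.989% were. The members' median log2 ratio was -0.04 with saline and 0.10 with AngII/PE, beside -0.04 and 0.01 over all compared genes. Counted per cell after thinning to 2000 UMIs, macrophage-like cells held UMIs of a mean of 2.57 (SD over cells 1.60), 2.53 (1.64), 2.50 (1.64) and 2.69 (1.68) different members.

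Cdkn1a, which encodes the cell-cycle inhibitor p21, stood at 274, 254, 236 and 257 CPM. The ratio of carboplatin to PBS was 0.928 (0.894 to 0.964) with saline and 1.09 (1.06 to 1.12) with AngII/PE, so the interval lay below 1 in one arm and above it in the other. Mice of both sexes were pooled, and cells were called female or male from Xist and 4 Y-linked genes. Among female-called cells the Cdkn1a ratio was 1.11 with saline and 1.2 with AngII/PE. Among male-called cells it was 0.802 and 0.980. The sexes therefore lay on opposite sides of 1 in both arms, and the female share of called macrophage-like cells was 45.5%, 55.8%, 29.2% and 49.4%. Among the regulators, Mdm2 stood at 83.8, 68.8, 93.1 and 93.4 CPM, with ratios of 0.821 (0.765 to 0.881) and 1.00 (0.959 to 1.05). Trp53 stood at 69.7, 67.0, 59.5 and 64.1 CPM, with ratios of 0.962 (0.893 to 1.03) and 1.08 (1.02 to 1.14). Mdm4 and Ppm1d, the phosphatase that turns the p53 response off, had ratios from 0.965 to 1.06, and each of their intervals held 1.

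Of the members that halt the cell cycle, Ccng1 (cyclin G1, which recruits a phosphatase to MDM2) stood at 34.1, 36.4, 39.7 and 43.3 CPM. Its ratios were 1.07 (0.963 to 1.18) and 1.09 (1.02 to 1.17). Plk2 was lower after carboplatin in both arms, at 56.7 against 39.5 CPM with saline (0.697, 0.636 to 0.763) and 34.3 against 31.4 CPM with AngII/PE (0.914, 0.848 to 0.987). Plk2 is also an immediate-early gene. The 18 immediate-early and dissociation genes of another list had a median log2 ratio of -0.26 with saline and 0.02 with AngII/PE in the same cells, led with saline by Hspa1b (-0.53), Klf2 (-0.49) and Klf4 (-0.43) and with AngII/PE by Fosb (0.51), Egr1 (-0.41) and Klf2 (0.40). Their part in the Plk2 values was not tested.

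The pro-apoptotic members differed among themselves. Bax, which permeabilises mitochondria, stood at 158, 146, 175 and 205 CPM, with ratios of 0.925 (0.880 to 0.972) and 1.17 (1.13 to 1.21). Pmaip1 was higher after carboplatin in both arms, at 38.4 against 50.8 CPM with saline (1.32, 1.21 to 1.45) and 30.1 against 36.1 CPM with AngII/PE (1.2, 1.11 to 1.29). By sex the Pmaip1 ratio was 1.60 and 1.14 for female and 1.2 and 1.26 for male cells. No share over all genes is given beside these ratios, so they are a description only. Fas was 17.6 CPM after PBS and 25.7 CPM after carboplatin with saline, a ratio of 1.46 (1.28 to 1.66), and 17.4 and 19 CPM with AngII/PE (1.09, 0.984 to 1.21). Aen, a nuclease induced by p53 in apoptosis, was 21.2 against 15.2 CPM with saline, a ratio of 0.717 (0.618 to 0.831), and 17.9 against 18 CPM with AngII/PE, a ratio of 1.01 (0.909 to 1.12).

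Phlda3 was above its PBS level in both arms, by less than 1.5-fold. It stood at 11.6, 14.6, 13.8 and 19.6 CPM, with ratios of 1.26 (1.07 to 1.50) and 1.42 (1.27 to 1.59). Split by sex, the saline ratio was 1.76 for female and 0.760 for male cells, on opposite sides of 1, and the AngII/PE ratios were 1.14 and 1.54. Intervals above 1 in both arms were seen for 3 of 28 members (Pmaip1, Trp53inp1 and Phlda3), where 5.35% of all genes had them, and intervals below 1 in both arms for 1 (Plk2), where 7.09% had them. A gene with many UMIs has a narrow interval, so these counts follow depth as well as the size of a difference.

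Zmat3, an RNA-binding target of p53, stood at 11.3, 12.7, 10.8 and 11.7 CPM in macrophage-like cells, with intervals that held 1 in both arms. Eda2r was near 0 there in all 4 libraries (7, 0, 12 and 12 UMIs) and was not compared. Sesn2, which senses leucine and restrains mTORC1, was 6.26 CPM after PBS and 9.96 CPM after carboplatin with saline, a ratio of 1.59 (1.28 to 1.98) on 345 UMIs. Both saline libraries were under 10 CPM, and its mean passed the filter only through the AngII/PE libraries, so its call supports nothing. With AngII/PE it was 11.9 and 12.9 CPM, a ratio of 1.08 (0.953 to 1.22). Ddit4, an mTORC1 inhibitor that glucocorticoids and low oxygen also induce, was 6.18 and 5.63 CPM with saline and 23.7 and 14 CPM with AngII/PE. Its ratio with AngII/PE was 0.591 (0.534 to 0.653), the lowest among the compared members in these cells. Its mean passed the 10 CPM filter only through the AngII/PE libraries, above all the PBS one, in which it is high. Its call therefore supports nothing. Of the 8 glucocorticoid-induced genes of another list, 7 lay below 1 with saline and 6 with AngII/PE (medians -0.34 and -0.13 on the log2 scale), led by Fkbp5 (-0.99), Cebpd (-0.58) and Errfi1 (-0.46) with saline and by Klf9 (-0.76), Fkbp5 (-0.35) and Zbtb16 (-0.34) with AngII/PE. Their part in the Ddit4 values was not tested. The DNA repair members Xpc, Polk, Ercc5 and Rrm2b had ratios from 0.861 to 1.18 in the 2 arms. Ccng2, the relative of cyclin G1, had ratios of 1.32 and 1.09, Trp53inp1 of 1.16 in both arms, and Sesn1 of 0.975 and 1.16. Bbc3, Plk3, Ei24, Rps27l, Dram1 and Apaf1 lay between 0.848 and 1.14. The 7 members under the filter in these cells, each with a mean below 10 CPM, were Gadd45a, Eda2r, Tnfrsf10b, Ddb2, Perp, Pidd1 and Trp53i11.

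**Figure D2:**
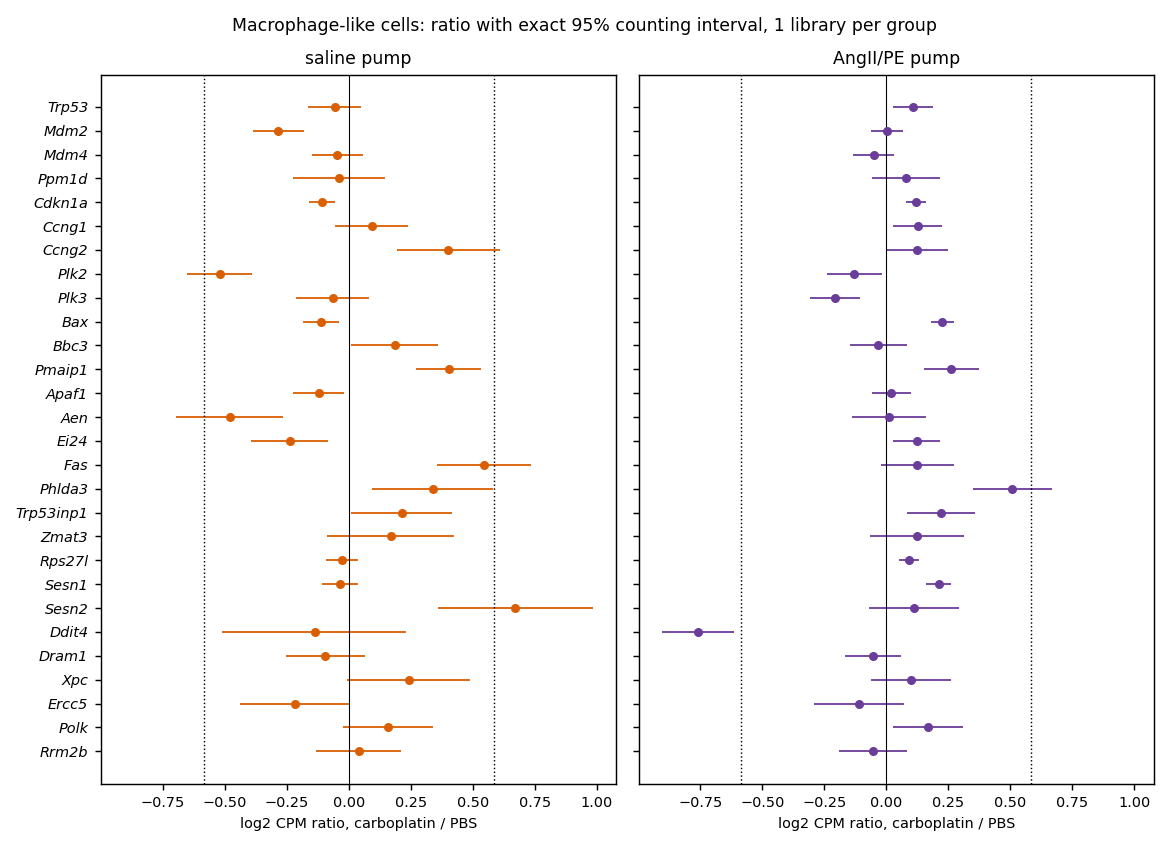
Log2 ratio of CPM, carboplatin over PBS, for the 28 compared genes in macrophage-like cells, by pump arm; points are the ratios, bars the exact 95% counting intervals and dotted lines 1.5-fold. Most points lie close to 0, and Sesn2 with saline (0.67) and Ddit4 with AngII/PE (-0.76) alone pass the lines.

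The macrophage-like class joined several clusters, and the 2 arms drew on different ones. The resident subset, marked by Lyve1 and Timd4, held 1779 of the 1949 macrophage-like cells after PBS with saline and 844 of 1017 after carboplatin. Within it 0 of 32 compared members were higher (1.55% of all genes) and 1 was lower (2.31%), and Cdkn1a stood at 263 and 234 CPM. With AngII/PE, most cells were in the inflammatory, MHC class II and unnamed subsets. Cdkn1a stood at 662, 521, 401 and 420 CPM in the inflammatory subset and at 376, 378, 406 and 324 CPM in the interferon subset, against 263, 234, 159 and 181 CPM in the resident one. Mdm2 stood at 272, 156, 120 and 127 CPM in the inflammatory subset. With saline these levels rest on few cells, 22 and 21 in the inflammatory and 31 and 25 in the interferon subset, against 532 and 916, and 95 and 206, with AngII/PE. The subsets were clustered on genes that included members, so these levels are a description. The lipid-associated subset had 161 and 221 CPM of Cdkn1a with AngII/PE after PBS and carboplatin. The cycling cluster, left out of the class, had 449, 450, 192 and 299 CPM of Cdkn1a. An unnamed cluster with macrophage markers, none among its leading genes, was also left out (401, 533, 223 and 91 cells). With saline 3 of 30 members were higher there (2.77% of all genes) and 2 lower (3.18%). With AngII/PE 3 of 12 were higher (5.42%) and 1 lower (6.39%). Its Cdkn1a log2 ratios were -0.32 and 0.91. Within a cluster, members needed only 50 UMIs, a weaker filter than that for all genes.

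Further lists around the p53 pathway were counted in macrophage-like cells, where 1.66% of all genes were higher and 2.11% lower with saline, and 0.436% and 0.989% with AngII/PE. At these shares a list of this size would hold few such genes, so the counts say nothing particular about the lists. Of 14 compared genes among other known p53 targets, 0 were higher and 1 was lower with saline (Sco2, a mitochondrial copper chaperone, 20.1 against 13.2 CPM, ratio 0.658), and 0 passed with AngII/PE. Next in size were the antiproliferative gene Btg2 (log2 -0.26) and Gdf15, a stress cytokine (0.24), with saline. With AngII/PE they were Ccnd1, which encodes cyclin D1 (0.46), Ephx1, an epoxide hydrolase (0.32), and Sco2 (0.23). Of 15 kinases, adaptors and modifiers of p53, 0 passed in either arm, and the largest log2 ratios were those of Mdc1 (-0.28), Kmt5a (-0.27) and Chek2 (0.26) with saline and of Atm (0.21), Atr (-0.18) and Mdc1 (-0.17) with AngII/PE. Of 18 other apoptosis genes, 0 passed in either arm; Cycs, which encodes cytochrome c, was at -0.25 with saline and 0.17 with AngII/PE. Bcl2l1, which encodes the survival protein BCL-XL, was at -0.21 with saline, and Bid, which links death receptors to mitochondria, at 0.17 with AngII/PE. Of 4 other cell-cycle inhibitors compared, 0 were higher and 1 was lower with saline, and 0 passed with AngII/PE. The lower one was Cdkn1c, at 19.1 against 11 CPM with saline (ratio 0.573) and 6.83 against 6.97 CPM with AngII/PE. Its mean passed 10 CPM only through the saline libraries, above all the PBS one, in which it is high, so its call supports nothing. Cdkn2c had log2 ratios of 0.31 and 0.33 in the 2 arms, and Cdkn1b of 0.24 and 0.05. Atf4, Herpud1 and Ddit3 of the integrated stress response lay between -0.18 and 0.02.

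In endothelial-like cells the core targets Cdkn1a, Bax and Phlda3 were above their PBS levels in both arms. Cdkn1a stood at 115, 142, 160 and 184 CPM. The carboplatin ratio was 1.24 (1.1 to 1.40) with saline and 1.15 (1.03 to 1.29) with AngII/PE. Bax stood at 106, 127, 136 and 184 CPM, with ratios of 1.2 (1.05 to 1.36) and 1.36 (1.21 to 1.53). Phlda3 stood at 26.1, 32.4, 54.5 and 75.8 CPM, with ratios of 1.24 (0.959 to 1.62) and 1.39 (1.16 to 1.68). All of these ratios were below the 1.5-fold line. Of the other core members, Mdm2 stood at 61.3, 55.7, 58.0 and 60.2 CPM and Ccng1 at 36.2, 33.7, 24.3 and 31.5 CPM. Both were below PBS with saline and above it with AngII/PE, whereas Trp53, Zmat3, Eda2r and Aen were above it in both arms. Aen with saline (19.8 and 20.1 CPM) and Eda2r with AngII/PE (22.6 and 23.9 CPM) hardly differed. Of all 31 compared members, 13 lay above 1 with saline, where 49.9% of all genes did. With AngII/PE 16 did, beside 51.0% of all genes, so the members as a whole were not raised.

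Across the endothelial-like members, 2 of 31 were at least 1.5-fold higher with saline (Zmat3 and Dram1, background 2.87%) and 0 lower (background 4.04%). With AngII/PE 1 was higher (Dram1, background 3.45%) and 2 were lower (Ddit4 and Tnfrsf10b, background 2.59%). Zmat3 was 7.96 and 14 CPM with saline, a ratio of 1.76 (1.13 to 2.79) on 91 UMIs, and 12.3 and 16.6 CPM with AngII/PE (1.35, 0.904 to 2.04). Dram1, a lysosomal protein that promotes autophagy, was 7.72 and 11.6 CPM with saline (1.50, 0.942 to 2.43) and 7.33 and 14.6 CPM with AngII/PE (1.99, 1.23 to 3.33). Its saline ratio was below 1 among female-called cells (log2 -0.52). Dram1 passed the 10 CPM filter only through the carboplatin libraries, in which it is high, so its call supports nothing. Macrophage-like cells held 29.8 to 32.6 CPM of Dram1. Summed macrophage markers in the endothelial-like class were 1775, 1008, 1274 and 1968 CPM, lower after carboplatin with saline and higher with AngII/PE. Their part in the Dram1 values was not tested.

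Ddit4 was the endothelial-like member with the widest range, at 35.7, 24.5, 188 and 115 CPM. Its carboplatin ratio was 0.685 (0.526 to 0.888) with saline and 0.610 (0.540 to 0.689) with AngII/PE. The 8 glucocorticoid-induced genes had medians of -0.13 and -0.28 on the log2 scale, and their part in the Ddit4 values was not tested. Fas was lower after carboplatin in both arms, at 107 against 76.3 CPM with saline (0.715, 0.617 to 0.828) and 119 against 102 CPM with AngII/PE (0.851, 0.740 to 0.979). Tnfrsf10b was 19.3 and 19.1 CPM with saline and 18.2 and 11.1 CPM with AngII/PE (0.610, 0.405 to 0.912). Trp53i11 lay on opposite sides of 1 in the 2 arms, at 91.0 against 128 CPM with saline (1.41, 1.23 to 1.61) and 244 against 168 CPM with AngII/PE (0.687, 0.619 to 0.761). Trp53 was 63.5 and 86.9 CPM with saline (1.37, 1.16 to 1.61) and 80.0 and 91.5 CPM with AngII/PE (1.14, 0.974 to 1.34). Aen was 19.8 and 20.1 CPM with saline and 14.7 and 21.4 CPM with AngII/PE (1.46, 1.02 to 2.12). Trp53inp1, a stress protein that helps p53 and autophagy, was 27.3 and 19.1 CPM with saline (0.701, 0.519 to 0.943).

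Intervals above 1 in both arms were seen for Cdkn1a and Bax (background 2.57%) and below 1 for Fas and Ddit4 (background 2.85%). Split by sex, the Cdkn1a ratio was 1.47 for female and 1.34 for male endothelial-like cells with saline, and 2.08 and 1.2 with AngII/PE. The Phlda3 ratios were 1.22 and 1.46 with saline and 1.52 and 1.33 with AngII/PE. The Bax ratio was 0.890 for female and 1.50 for male cells with saline, and 1.06 and 1.46 with AngII/PE, so that it lay below 1 in one of these 4 comparisons. Some of these ratios by sex rest on few cells, such as 60 female-called cells after PBS with AngII/PE. No share over all genes is given beside them, so they are a description only. The female share of called endothelial-like cells was 38.7%, 27.4%, 25.9% and 49.8%. Other values moved with the groups in this class. The median depth per cell was 5869, 6412, 9909 and 10026 UMIs, summed cycling markers were 160, 215, 305 and 554 CPM, and summed erythroid markers 1224, 1111, 2164 and 3105 CPM. Their part in the values of Cdkn1a, Bax and Phlda3 was not tested. All 35 genes together gave ratios of 1.01 (0.982 to 1.05) and 0.977 (0.947 to 1.01).

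**Figure D3:**
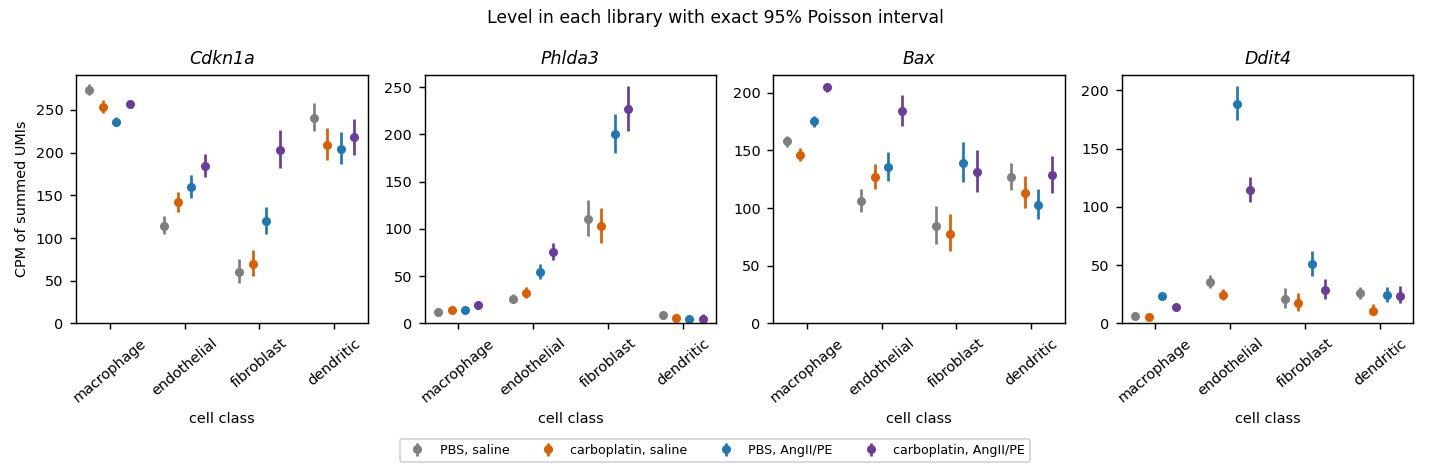
CPM of Cdkn1a, Phlda3, Bax and Ddit4 in each library and class, with exact 95% Poisson intervals. In endothelial-like cells Cdkn1a goes from 115 to 184 CPM over the 4 libraries, and Ddit4 is far above its saline levels in both AngII/PE libraries (188 and 115 CPM).

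Fibroblast-like cells had the most members past 1.5-fold, on the fewest cells, and the female share of called cells was 57.4%, 35.1%, 13% and 55.6%. With saline 5 of 23 were higher (Mdm2, Plk2, Apaf1, Zmat3 and Trp53inp1), where 5.63% of 7330 genes were, and 0 were lower, where 5.59% were. With AngII/PE 2 of 27 were higher (Fas and Cdkn1a, background 3.80%) and 5 were lower (Trp53inp1, Ddit4, Bbc3, Ccng1 and Plk3, background 6.87%). The median log2 ratio of the members was 0.09 with saline and -0.09 with AngII/PE, beside -0.02 and -0.04 over all genes, and all 35 genes summed gave ratios of 1.01 (0.942 to 1.08) and 0.992 (0.943 to 1.04). Of the 5 genes higher with saline, Plk2 was not compared with AngII/PE, Mdm2, Apaf1 and Zmat3 were within 1.5-fold there, and Trp53inp1 lay past the line in opposite directions. It was 22.5 and 54.2 CPM with saline, a ratio of 2.41 (1.52 to 3.93), and 71.2 and 35.3 CPM with AngII/PE, a ratio of 0.496 (0.357 to 0.680). Of its 66 UMIs after carboplatin with saline, 26 came from 1 cell, and without the highest cell of each library the log2 ratio went from 1.27 to 0.91.

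Mdm2 was 34.1 and 52.5 CPM with saline (1.54, 1.02 to 2.34) and 47.4 and 50.1 CPM with AngII/PE (1.06, 0.773 to 1.44). Apaf1, the scaffold that activates caspase-9, was 31.6 and 50.1 CPM with saline (1.58, 1.04 to 2.44) on 99 UMIs. The intervals of Zmat3 (18.3 and 31.2 CPM) and Plk2 (17.5 and 27.1 CPM) held 1. Cdkn1a in these cells was 59.9, 69.8, 120 and 204 CPM, with ratios of 1.17 (0.841 to 1.62) and 1.7 (1.43 to 2.02). The last value rested in part on 1 cell, which held 103 of the 329 UMIs, and without the highest cell of each library the log2 ratio of 0.77 became 0.41, below the line. The cells with a Cdkn1a UMI were 41 of 115 after PBS and 39 of 92 after carboplatin. Ddit4 was again lower with AngII/PE, at 50.6 against 28.5 CPM (0.562, 0.387 to 0.807). The 8 glucocorticoid-induced genes had a median log2 ratio of -0.54 there, and their part in the Ddit4 values was not tested. Bbc3, which encodes the death protein PUMA, was 25.3 against 15.5 CPM on 73 UMIs, and its interval held 1. With saline Bbc3 was 4.99 and 9.03 CPM. Its mean passed 10 CPM only through the AngII/PE libraries, above all the PBS one, in which it is high, so its call supports nothing. Of all 24 values past 1.5-fold in the 8 comparisons, 20 stayed past it without the highest cells, and the 4 that did not were Mdm2 and Zmat3 with saline and Cdkn1a and Plk3 with AngII/PE, all in fibroblast-like cells.

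Dendritic-like cells had 1 of 28 members higher with saline (Ddb2, background 4.32%) and 2 lower (Ddit4 and Aen, background 3.07%). With AngII/PE 1 of 26 was higher (Ccng1, background 3.31%) and 1 lower (Fas, background 6.95%). Ddb2, which recognises ultraviolet and other bulky damage in DNA, was 6.31 and 16.8 CPM with saline, a ratio of 2.67 (1.55 to 4.69) on 61 UMIs. With AngII/PE it was 12.2 and 8.82 CPM, under the UMI limit for a comparison. Its mean passed 10 CPM only through carboplatin with saline, the high side of the ratio of 2.67, so its call supports nothing. Ddit4 was 25.8 and 11.1 CPM with saline (0.430, 0.265 to 0.674) and 24.4 and 23.9 CPM with AngII/PE (0.980, 0.650 to 1.47). The 8 glucocorticoid-induced genes had medians of -0.18 and -0.05 on the log2 scale in these cells, and their part was not tested. Aen was 23.9 and 15.1 CPM with saline (0.632, 0.412 to 0.949) and 21.4 and 22.3 CPM with AngII/PE.

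Fas in dendritic-like cells was 15.9 and 10.6 CPM with saline (0.669, 0.397 to 1.09) and 19.3 and 6.23 CPM with AngII/PE, a ratio of 0.322 (0.155 to 0.618) on 58 UMIs. Its mean passed 10 CPM only through the PBS libraries, in which it is high, so its call supports nothing. Ccng1 was 26.5 and 40.5 CPM with AngII/PE (1.53, 1.08 to 2.17) and 40.6 and 39.0 CPM with saline. Ercc5, an endonuclease of excision repair, was 16 and 11.4 CPM with AngII/PE (0.715, 0.403 to 1.24), and Plk2 was 13 and 18.2 CPM (1.39, 0.835 to 2.34). Cdkn1a stood at 241, 209, 205 and 218 CPM, and Pmaip1 at 144, 139, 197 and 164 CPM, with carboplatin ratios of 0.967 (0.838 to 1.11) and 0.831 (0.718 to 0.961). No member had intervals on the same side of 1 in both arms in dendritic-like or fibroblast-like cells, where they lay above 1 for 0.729% and 1.25% of all genes and below 1 for 1.04% and 1.29%.

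**Figure D4:**
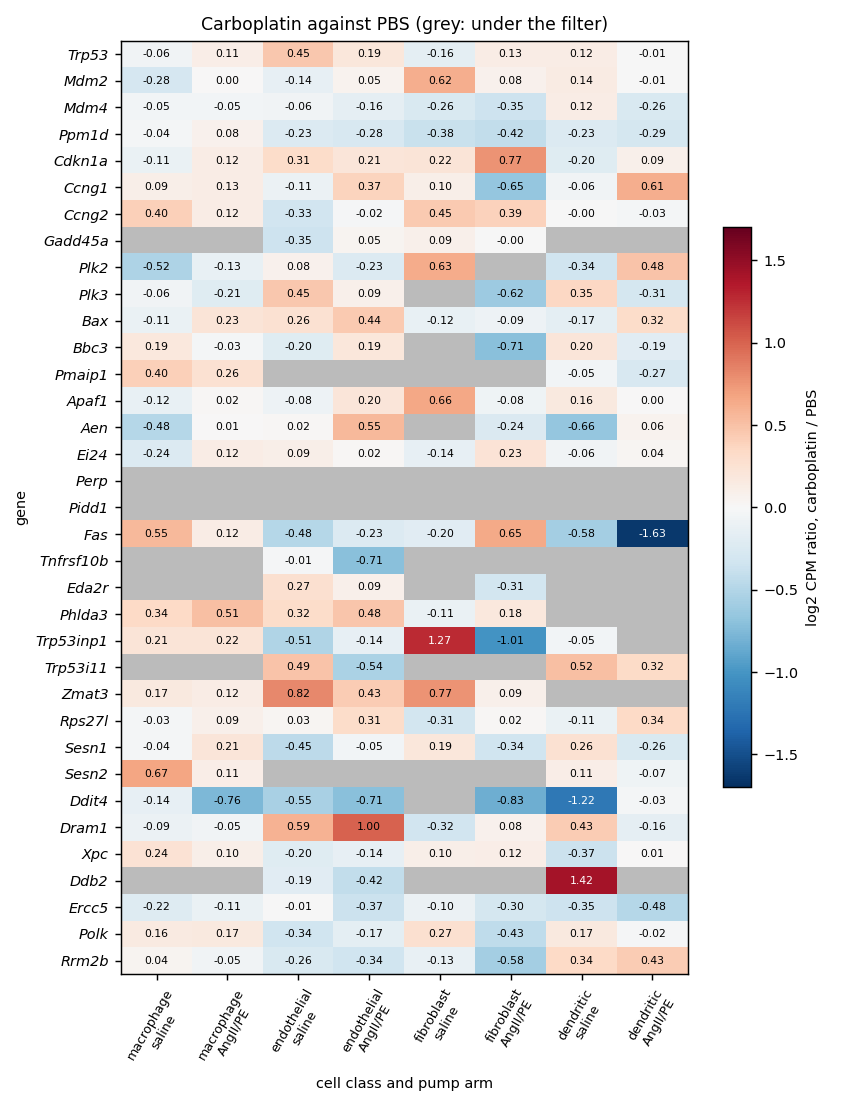
Log2 ratio of CPM, carboplatin over PBS, for the 35 genes (rows) in the 8 comparisons (columns), with each value printed and grey where the gene was under the filter of 10 CPM and 50 UMIs. The strongest colours are in the fibroblast-like and dendritic-like columns, such as Trp53inp1 (1.27 and -1.01), Ddb2 (1.42) and Fas (-1.63), and Cdkn1a lies between -0.20 and 0.77. In dendritic-like cells Ddb2 and Fas passed the filter only through the high side of these ratios, so their colours support nothing.

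Several members had pump ratios further from 1 than their carboplatin ratios. The counts that follow are small and mostly near the shares of all genes, so they say nothing particular about the members. After both PBS and carboplatin, Ddit4 was at least 1.5-fold higher with AngII/PE than with saline in macrophage-like cells (3.84 and 2.49), the only one of 28 members there (background 4.66%), and 0 were lower (background 5.64%). Ddit4 passed the 10 CPM filter there only through the AngII/PE libraries, in which it is high. The macrophage-like cells of the saline and AngII/PE libraries lay mostly in different clusters, as described above. In endothelial-like cells Phlda3 (2.09 and 2.34) and Ddit4 (5.28 and 4.70) were higher of 31 (background 5.77%), and Mdm4, Ddb2 and Rrm2b, a subunit of ribonucleotide reductase, were lower (background 5.09%). At a finer clustering (resolution 1.2) the endothelial-like cells also divided by pump, with 532, 432, 88 and 85 cells of the 4 libraries in one cluster and 11, 22, 192 and 230 in another. Whether these ratios hold within a cluster was not tested. The Rrm2b ratios there were 0.645 and 0.607, and those of Mdm4 were 0.597 and 0.557. In fibroblast-like cells Phlda3 (1.81 and 2.21), Bax (1.66 and 1.7), Cdkn1a (2.0 and 2.92) and Ddit4 (2.43 and 1.65) were higher of 24 (background 6.58%), and Rrm2b (0.599 and 0.437) was lower (background 6.65%). Of the 329 Cdkn1a UMIs there after carboplatin with AngII/PE, 103 came from 1 cell, and the ratio of 2.92 includes that cell. In dendritic-like cells Trp53i11 (3.28 and 2.87) and Sesn2 (1.73 and 1.53) were higher of 26 (background 3.87%), and Trp53inp1 and Bbc3 were lower (background 5.41%). The endothelial-like Ddb2 and dendritic-like Trp53inp1 means passed 10 CPM only through the saline libraries. These ratios use the same 4 libraries as the carboplatin comparisons, and the pump contrast was added after the values were seen.

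Barcodes over the mitochondrial limit, with more than 500 genes, were summed apart, since damaged cells could be among them. With saline, 4 of 30 compared members were higher after carboplatin (Ccng2, Pmaip1, Ercc5 and Trp53i11, background 6.83%) and 0 lower (background 4.19%). With AngII/PE, 2 were higher (Phlda3 and Rps27l, background 6.22%) and 1 was lower (Ddb2, background 2.40%). Cdkn1a was 127, 169, 140 and 160 CPM there, with ratios of 1.33 (1.15 to 1.53) and 1.14 (1.01 to 1.29), and Bax had ratios of 1.39 (1.15 to 1.69) and 1.30 (1.13 to 1.50). These barcodes were not divided into classes, so a different mix of cells and a different level per cell cannot be told apart in them. Rps27l is a near copy of the ribosomal gene Rps27, and its counts are uncertain where reads could be divided between the pair.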

How the data were processed

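Libraries were made with the 10x 3' kit from sorted heart cells, with 10000 cells loaded for each library (per the labels' protocols). The authors deposited raw UMI counts for every gene and cell on mm10. Cell Ranger was 7.1.0 per the file headers, while the labels' protocols name version 3. Seurat was 3.2.3 in the labels' protocols, and the submitters' processing notes name version 4. The handling of intronic reads was not given in the sources used here.

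Kept cells had under 10% mitochondrial counts, under 30000 UMIs and between 500 and 7000 genes (17312 of 27968 barcodes). They were normalised with SCTransform (sctransform 0.4.2, Seurat 5.3.0, R 4.3.3) and clustered on 80 components at resolution 0.6 into 23 clusters, named from marker lists, with thresholds chosen once the data had been seen. Clusters with macrophage markers but low UMI counts, or with none among their 10 leading genes, were left unnamed. They held 27.4%, 33.6%, 24.3% and 16.2% of kept cells. Doublets were not removed. UMIs were summed per class and library (Python 3.11.15, NumPy 2.4.6, SciPy 1.17.1), and the calculation was tested on simulated data. A share of cells was taken after thinning.

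The members and lists were chosen with earlier results of these data known. Named genes are 9 core members in macrophage-like cells, the 4 largest log2 ratios per comparison and the 3 largest of each further list in macrophage-like cells; a gene named for its level, for the pump, for its sex or arm pattern or as a list member beyond these was chosen after its values were seen. A gene that the rule names is not reported here. Alternatives were edgeR's TMM scaling (4.0.16), other filters and clusterings, equal cell weights and the cells of each sex.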

Additional observations from a re-analysis of the deposited data

Results flagged for a closer look

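Trp53inp1 in fibroblast-like cells went in opposite directions after carboplatin in the 2 pump arms, with log2 ratios of 1.27 with saline and -1.01 with AngII/PE, a gap of 2.28. Each arm is 1 pair of libraries, and the difference was not tested. The direction was the same in female-called cells (0.88 and -1.64) and male-called cells (2.79 and -1.01). The saline values rest on 25 and 47 UMIs, under the limit of 50 for a comparison. Of the 66 UMIs after carboplatin with saline, 26 came from 1 cell, and the split by sex was not repeated without it.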

How the results depend on the processing

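No paired analysis was possible because each group is 1 library. Counts of members past 1.5-fold are small, so a change of 1 gene moves them, and the cause of a move was not tested unless named; of the counts tried, 95 stayed within 1.5 times and 57 moved, and of the medians 63 and 13. With TMM scaling no count moved by over 1.5 times. In what follows, only counts that moved are given, higher, then lower, with saline and then with AngII/PE. With no filter on low values (more genes compared), macrophage-like cells had 2 higher and 2 lower with saline and 2 lower with AngII/PE. Endothelial-like cells had 1 lower with saline and 3 higher with AngII/PE. Fibroblast-like cells had 8 higher and 1 lower with saline and 7 higher with AngII/PE. Dendritic-like cells had 3 higher and 5 lower with saline and 4 lower with AngII/PE. With log-normalised clustering, macrophage-like cells had 0 higher and 1 lower with saline, and endothelial-like cells 1 higher with saline. Dendritic-like cells had 2 higher with saline and 2 lower with AngII/PE. At resolution 1.2, macrophage-like cells had 2 higher with saline, and dendritic-like cells 0 higher with saline and 2 higher with AngII/PE. With at least 1000 genes per cell, endothelial-like cells had 1 higher and 1 lower and dendritic-like cells 3 higher and 4 lower, all with saline. Leaving the members out of the clustering gave 1 higher in endothelial-like cells with saline. With each cell weighted equally, endothelial-like cells had 1 higher and 1 lower and fibroblast-like cells 3 higher with saline, and dendritic-like cells 2 higher and 4 lower with saline and 0 higher and 2 lower with AngII/PE.

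In female-called cells (fewer cells), macrophage-like cells had 3 higher with saline and 0 lower with AngII/PE, endothelial-like cells 2 lower with saline and 2 higher and 0 lower with AngII/PE, fibroblast-like cells 0 higher with saline and 0 higher and 2 lower with AngII/PE, and dendritic-like cells 2 higher and 1 lower with saline and 2 higher and 2 lower with AngII/PE. In male-called cells, macrophage-like cells had 2 lower with saline and 1 higher with AngII/PE, endothelial-like cells 4 higher and 4 lower with saline and 3 higher and 4 lower with AngII/PE, fibroblast-like cells 1 higher and 3 lower with saline and 3 lower with AngII/PE, and dendritic-like cells 0 higher with saline and 2 higher with AngII/PE. Among members past 1.5-fold, the log2 ratios that crossed 0 were those of Dram1 in endothelial-like female-called cells with saline (-0.52), Mdm2 in fibroblast-like male-called cells with saline (-0.0074), Ccng1 in fibroblast-like male-called cells with AngII/PE (0.12) and Aen in dendritic-like female-called cells with saline (0.0059). Of alternatives chosen after seeing the data, joining the 3 unnamed clusters with macrophage markers to the macrophage-like class gave 0 higher and 1 lower with saline, and leaving out the endothelial-like cluster of low UMI counts gave 1 lower with saline. Leaving out the highest cell of each library is given with the fibroblast-like results. One library per group, and 70 to 115 fibroblast-like cells in each, limit all these values.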
